A study of Mus musculus and Callithrix jacchus with 22 samples.

Results

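Oligodendrocyte precursor cells (OPC) are described here in the neocortex of mouse and marmoset, as they were recovered by single-cell ATAC-seq, an assay in which a transposase cuts and tags open chromatin. The members were all cells that the authors' deposited annotation named OPC, and no measured value was used to choose them again. They comprised 1992 of 35064 cells, or 5.68%. Of these, 383 were among 19145 mouse cells (2.00%) and 1609 among 15919 marmoset cells (10.1%).

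OPC are the dividing, Pdgfra- and Olig2-expressing glia from which the myelin-forming oligodendrocytes of the brain arise. A precursor that leaves this state passes through a committed precursor (COP), a newly formed (NFOL) and a myelin-forming (MFOL) stage before it becomes a mature oligodendrocyte (MOL). In cortex this maturation takes place largely after birth, while a population of precursors stays on in the adult.

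Mouse cells came from the joined somatosensory and motor cortex of wild-type C57BL/6 animals aged 1, 7 or 21 postnatal days (P1, P7, P21). Each age had 4 libraries, 2 with numbered titles and 2 titled Pool, and the libraries were made on plates by combinatorial indexing of fixed cells. Marmoset cells came from wild-type animals, labelled as somatosensory cortex (the protocol names motor cortex as well), in 5 newborn libraries (Day0) and 5 adult libraries (2 at Y7, aged 7 years, and 3 at Y8, aged 8 years), made with a droplet kit from live-sorted cells. Species and library chemistry went together, so the species are set side by side without a test. No group carried a transgene or a treatment, and nothing in the labels ties a library to an animal, so p-values measure the spread between libraries only. All ratios are of recovered cells, in which fewer cells of a type in the tissue and poorer recovery of that type cannot be told apart. Gene-level values were not analysed here, so the name OPC could not be checked against Pdgfra and Olig2 and rests on the annotation.

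The 22 libraries ranged from 893 to 3407 cells and from 2186788 to 15904940 reads. The numbered P1 libraries stood apart from all others. Over all their cells they had a median of 171 and 107 peaks per 1000 reads, against 485 to 578 in the other 20 libraries, and they were the only ones in which the peak count of a cell went down to 300. Among newborn marmoset libraries, the makeup of libraries 1 and 2 agreed within sampling noise (chi-square test of cell type counts, p = 0.362) but differed from that of libraries 3 to 5 (p of 2.91e-71 or smaller for each pair). Of the 383 mouse OPC, 189 carried a barcode that also occurred in another library, as did 35 of the 1609 marmoset OPC. Only 1 of 5572 shared mouse barcodes and 3 of 149 shared marmoset barcodes were OPC in both libraries. The read counts behind a shared barcode were equal in 1 mouse and 0 marmoset cases. Among mouse libraries of 1 age whose makeup agreed, only the first numbered and the first Pool library of P7 shared barcodes (333). Marmoset libraries whose makeup agreed shared 1 to 9 per pair. The barcodes therefore cannot tell whether such libraries came from the same animals. Libraries whose makeup agreed were kept apart, and whether they shared animals was not tested. With agreeing libraries averaged to 1, the smallest p a comparison of ages could reach was 0.2.

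In mouse, OPC were counted against neurons (pyramidal neurons and interneurons together) and against astrocytes, the other main glial class. The P1 libraries held 70 and 21 OPC in the numbered series and 17 and 21 in the Pool series, and the P7 libraries held 62, 73, 65 and 54. Per 100 neurons there were 4.05, 2.69, 2.17 and 2.63 OPC at P1. At P7 there were 5.81, 6.96, 4.84 and 5.21. Every P7 library lay above every P1 library. The group means were 2.88 ± 0.814 at P1 and 5.71 ± 0.926 at P7 (SD, n = 4 libraries each), a 1.99-fold difference on the scale of log2 ratios. In the exact two-sided permutation test p was 0.0286, the lowest possible with 4 against 4 libraries, and 0.0514 after Benjamini-Hochberg adjustment over the 9 mouse comparisons, which did not pass 0.05. Without the numbered P1 libraries the log2 difference was 1.22 in place of 0.99. Among cells with at least 2000 reads it was 0.28 (p = 0.229, exact permutation test). In those cells the P1 libraries had 3.96, 2.70, 2.33 and 3.13 OPC per 100 neurons and the P7 libraries 3.23, 4.83, 3.51 and 3.26, and the ages overlapped.

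Against astrocytes the gap between the ages was wider. The P1 libraries had 34.8, 20.6, 34.7 and 42.0 OPC per 100 astrocytes, and the P7 libraries had 103, 128, 138 and 169. At P1 astrocytes outnumbered OPC in 4 of 4 libraries, and at P7 OPC outnumbered astrocytes in 4 of 4. The log2 difference was 2.03, or 4.08-fold (33.03 ± 8.97 at P1 and 134.6 ± 27.1 at P7, SD, n = 4; exact permutation p = 0.0286, adjusted p = 0.0514). It was 2.08 within the numbered and 1.97 within the Pool series, and 1.77 without the numbered P1 libraries. The counts of astrocytes behind it were 201, 102, 49 and 50 at P1 and 60, 57, 47 and 32 at P7. Of the P7 astrocytes, 64.9% to 84.4% per library had fewer than 2000 reads, against 45.2% to 56.5% of the P7 OPC. With at least 3000 reads the log2 difference was 3.54, on 1 to 8 astrocytes per P7 library.

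**Figure D1:**
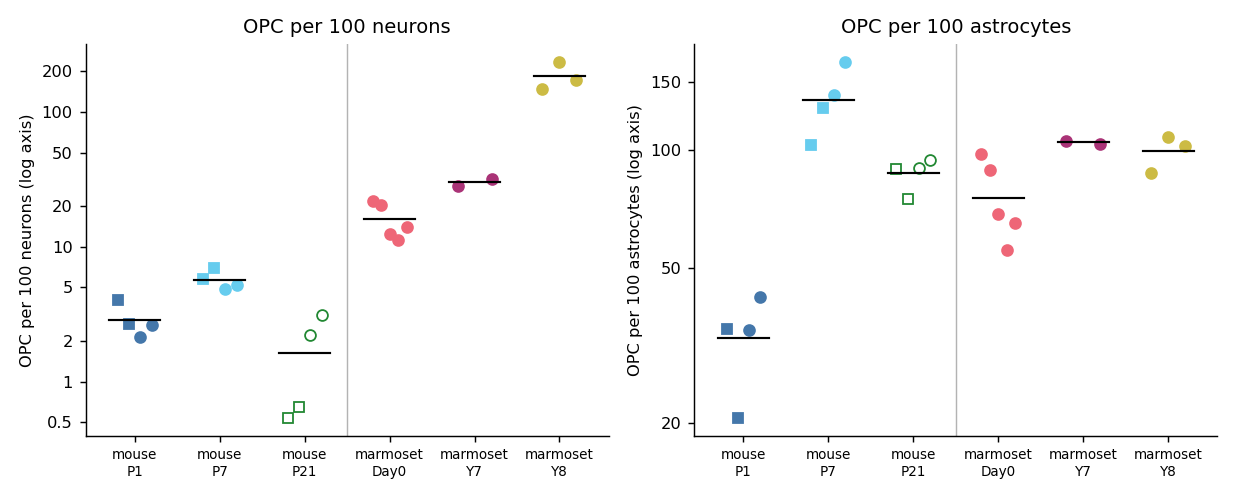
OPC per 100 neurons (left) and per 100 astrocytes (right) in each library, on log axes, with squares for the numbered mouse series, circles for all other libraries and a black line at the group mean. Open P21 symbols are the unassigned cells of the mouse OPC cluster, since no P21 cell was named OPC. The P7 libraries lay at 4.84 to 6.96 per 100 neurons and 103 to 169 per 100 astrocytes, above all P1 libraries, and the Y8 libraries lay at 148 to 236 per 100 neurons.

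No P21 cell was named OPC. In the 4 libraries 0 of 3340, 1950, 1350 and 1240 annotated cells carried the name, which allows shares of up to 0.0898%, 0.154%, 0.222% and 0.242% by counting error alone. These limits are for the name, which was given to whole groups of cells, and set no bound on precursors left without it. The cluster that held all mouse OPC, cluster 14, did hold P21 cells, and all 91 of them were left unassigned. They made up 33.5% of the 272 unassigned P21 cells. Per the study's methods, clusters were split by age and groups of under 100 cells were filtered. In the deposited table the smallest named group of a cluster at an age had 102 cells, and 24 of the 25 unassigned groups had fewer than 100. The part of this filter in the missing name was not tested.

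Counted by cluster, the 3 ages could be compared. Cluster 14 held 3.31%, 2.21%, 1.90% and 2.31% of all cells in the P1 libraries. In the P7 libraries it held 4.20%, 5.10%, 3.64% and 3.76%. At P21 it held 0.499% and 0.599% in the numbered and 1.90% and 2.65% in the Pool series. The P21 values overlapped those of P1 and lay below all those of P7, and within P21 the series stood apart, with Wilson 95% intervals that reached up to 0.798% and 1.04% in the numbered libraries and down to 1.31% and 1.91% in the Pool libraries. These intervals cover counting error only. The differences were 1.74 percentage points from P1 to P7 (exact permutation p = 0.0286, adjusted p = 0.0514, n = 4), -2.76 from P7 to P21 (p = 0.0286, adjusted p = 0.0514) and -1.02 from P1 to P21 (p = 0.2, adjusted p = 0.257). None passed 0.05 after adjustment. From P1 to P21 the difference was -2.21 points in the numbered and 0.17 points in the Pool series, so its direction differed between them. Among cells with at least 2000 reads the difference was 0.276 points from P1 to P7 and -2.48 from P7 to P21. From P1 to P21 it was then -2.20 points, with every P21 library below every P1 library (exact permutation p = 0.0286, adjusted p = 0.0857, n = 4). The P21 cells of the cluster had medians of 1254 to 1467 reads per library, under this limit. Of the P21 neurons, 15.6% to 17.8% per library lay under it. The limit thus acts on the cells counted, so these values do not show how firm the differences were.

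**Figure D2:**
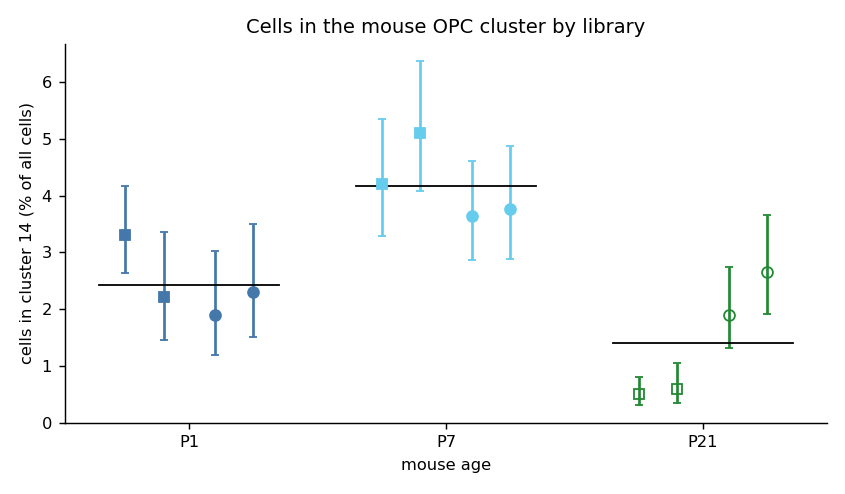
Percent of all cells of each mouse library that fell in cluster 14, which held every mouse OPC, with Wilson 95% intervals for counting error, squares for the numbered and circles for the Pool series, and a line at the mean of each age. Open P21 symbols are cells without a name; the numbered P21 libraries lay at 0.499% and 0.599% and the Pool libraries at 1.90% and 2.65%.

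The P21 cells of the cluster were few against neurons and close to the astrocytes in number. There were 0.540, 0.650, 2.21 and 3.15 of them per 100 neurons, and 89.5, 75, 90 and 94.6 per 100 astrocytes. The latter ratio lay above every P1 library and below every P7 library for OPC, and it was given no test because these cells carried no name. Their median of reads was 1377, 1467, 1254 and 1439 per library, or 0.322 to 0.372 times that of the neurons beside them. At P7 the same ratio of OPC to neurons was 0.507 to 0.712. The highest read count of any P21 cell in the cluster was 4137, against 12374 at P7.

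In marmoset, OPC were named at all ages and in larger numbers. The newborn libraries held 242, 229, 169, 144 and 163 OPC, the Y7 libraries 107 and 83, and the Y8 libraries 154, 172 and 146. Newborn libraries had 21.8, 20.3, 12.5, 11.3 and 13.99 OPC per 100 neurons. The Y7 libraries had 28.3 and 31.8, and the Y8 libraries had 148, 236 and 172. Every adult library lay above every newborn library, and OPC outnumbered neurons in the 3 Y8 libraries only. The adult mean was 5.71-fold the newborn one on the log2 scale (exact permutation p = 0.00794, the smallest possible, adjusted p = 0.0556 over 7 marmoset comparisons, n = 5). The log2 difference was 2.51, with 0.96 for Y7 alone, 3.55 for Y8 alone and 2.81 without newborn libraries 1 and 2. Between the adult ages it was 2.59, with p = 0.2, the smallest that an exact permutation test of 3 against 2 libraries allows. The neurons behind these ratios numbered 1108 to 1352 per newborn library, 378 and 261 at Y7 and 104, 73 and 85 at Y8, and their part in the ratio was not tested. Of all annotated cells, OPC made up 15.0%, 14.1%, 9.32%, 8.32% and 10.0% in newborn libraries. They made up 6.58% and 6.87% at Y7 and 9.81%, 10.5% and 9.98% at Y8. The mean of this share was thus lower in adults (8.74%) than in newborns (11.4%), which was not tested.

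Against astrocytes the marmoset ages lay closer together. Newborn libraries had 98.0, 89.1, 68.7, 55.4 and 65.2 OPC per 100 astrocytes. Adult libraries had 106 and 104 at Y7 and 87.5, 108 and 103 at Y8. The ages overlapped through Y8 library 1. The means were 75.3 ± 17.7 and 101.6 ± 8.17 (SD, n = 5), a 1.38-fold difference (exact permutation p = 0.0238, adjusted p = 0.0833) that did not pass 0.05. Without newborn libraries 1 and 2 the log2 difference was 0.69 instead of 0.46 (exact permutation p = 0.0357, adjusted p = 0.125). Among cells with at least 3000 reads, a limit chosen after seeing the data, it was 1.30 and passed (adjusted p = 0.0278, exact permutation test, n = 5). The limit lay above every adult astrocyte median (2536 to 2991 reads). It kept 50, 39, 72, 56 and 53 of 101, 80, 176, 159 and 142 astrocytes in adult libraries. In newborn libraries it kept 148 to 222 of 246 to 260. It thus acts on the counts compared, and the call does not show how firm the difference was. Side by side, the newborn marmoset ratio of OPC to astrocytes (55.4 to 98.0 per 100) lay between those of P1 and P7 mouse, and the adult one (87.5 to 108) overlapped that of the unassigned P21 mouse cells (75 to 94.6).

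Within the oligodendrocyte lineage, OPC were most of it in newborns and a small share in adults. They made up 93.8%, 97.0%, 78.2%, 73.1% and 75.8% of lineage cells in the newborn libraries, where the rest was COP. In adults they made up 9.32% and 9.56% at Y7 and 11.9%, 12.2% and 11.8% at Y8. These adult shares stayed within a narrow range although the later stages were divided differently, with MOL at 74.0% and 67.1% of the lineage at Y7 and 25.3% to 28.6% at Y8. For each adult OPC there were 9.73 and 9.46 later lineage cells at Y7 and 7.38, 7.20 and 7.47 at Y8. In mouse, OPC were the only lineage stage named at P1 and P7.

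**Figure D3:**
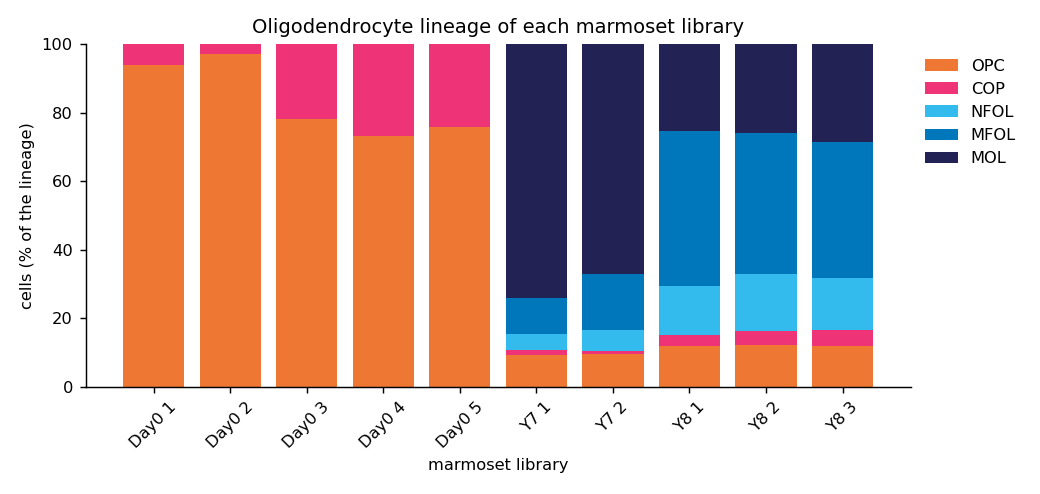
Share of each stage among the oligodendrocyte lineage cells of each marmoset library, as stacked percentages. OPC took 73.1% to 97.0% in newborn libraries and 9.32% to 12.2% in adult ones, and MOL took more of the lineage at Y7 than at Y8.

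The committed precursors, the stage after OPC, were compared with OPC directly. Per 100 OPC there were 6.61 and 3.06 COP in newborn libraries 1 and 2 and 27.8, 36.8 and 31.9 in newborn libraries 3 to 5. In adults there were 13.1 and 9.64 at Y7 and 26.0, 33.7 and 40.4 at Y8. Both ages thus held libraries with few and with many COP per OPC. The share of OPC among OPC and COP was 83.6% ± 11.0 in newborns and 81.0% ± 8.61 in adults (SD, n = 5), a difference of -2.59 points (exact permutation p = 0.635, adjusted p = 0.741). Neither its direction nor its size was stable. It was 6.22 points with Y7 and -8.47 with Y8 as the only adults, and 5.29 without newborn libraries 1 and 2. It was 0.767 without newborn library 2 alone and -10.3 with the replicate number as a block. The block leaves out newborn libraries 4 and 5, since no adult library carries their number. None of these values passed. With Y7 alone and under the block none could, as the smallest possible exact permutation p was 0.0952 and 0.111. Newborn libraries 1 and 2 were also those with the most OPC per neuron and per astrocyte, and the Y8 libraries had more COP per OPC than the Y7 libraries.

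OPC of both marmoset ages were never placed in the same cluster. The newborn OPC fell in cluster 6 (813 cells) and cluster 24 (134 cells), and all 662 adult OPC fell in cluster 10. Of the 8 marmoset types named at both ages, 2 shared a cluster between ages and 6, OPC among them, did not. In mouse, 3 of the 5 types named at both P1 and P7 shared a cluster, and OPC were among these. Whether age or library sets this split cannot be told apart, since no library held both ages.

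The smaller newborn cluster was present in every newborn library. Cluster 24 took 7.85%, 14.4%, 14.2%, 14.6% and 22.7% of the OPC of newborn libraries 1 to 5 (14.7% ± 5.27, SD, n = 5). Its OPC had medians of 5949, 6188, 6422, 8541 and 8047 reads. Those of cluster 6 had 4812, 3863, 4688, 4589 and 4894. Cluster 24 was thus higher in 5 of 5 libraries, 1.53-fold on average. The clusters were made from the accessibility of these same cells, so this is a description of them and no test is given. Peaks per 1000 reads were close in both, at 467 to 512 in cluster 24 and 477 to 518 in cluster 6. Whether depth took part in the division of newborn OPC into these clusters was not tested.

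The number of reads per cell was then set against that of neurons and astrocytes in the same library, to lessen the part of library depth. No cell had fewer than 1000 reads, so depth may not cancel fully in shallow libraries. In the P1 Pool libraries 50.7% and 51.9% of neurons and 73.5% and 78% of astrocytes had fewer than 2000 reads. The median OPC had 3631, 5631, 2059 and 2265 reads in the P1 libraries. In the P7 libraries it had 1762, 2120, 1942 and 2079. In marmoset it had 4164 to 5243 reads in newborn and 4456 to 5094 in adult libraries. The numbered P1 libraries stood above all other mouse libraries, and the marmoset ages overlapped. The difference from P1 to P7 was -0.67 in log2 reads (exact permutation p = 0.0857, adjusted p = 0.129, n = 4). It was -1.23 in the numbered and -0.10 in the Pool series.

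Marmoset OPC had fewer reads than neurons in 10 of 10 libraries, at 0.559 to 0.794 times their median. The mean log2 ratio was -0.69 ± 0.16 (SD, n = 10), or 0.619-fold (sign-flip permutation test, p = 0.00195, the smallest possible, adjusted p = 0.00781 over 8 tests). Mouse OPC had fewer reads than neurons in 6 of 8 libraries. The ratios were 0.753, 0.861, 1.05 and 1.17 at P1 and 0.507, 0.590, 0.712 and 0.578 at P7. The values above 1 were those of the P1 Pool libraries, and the mean was 0.748-fold (exact sign-flip permutation p = 0.0469, adjusted p = 0.0469, n = 8). This mouse call held in 1 of the 8 fits that left out a library, the one without P1 Pool library 2 (log2 -0.51). The other fits gave -0.34 to -0.49 with adjusted p of 0.0536 to 0.0938 (exact permutation tests, n = 7). Without both numbered P1 libraries the mean was -0.45 (exact permutation p = 0.125, n = 6). From P1 to P7 the ratio differed by -0.67 in log2 with no overlap between ages (exact permutation p = 0.0286, adjusted p = 0.0514, n = 4). With at least 2000 reads it differed by -0.14, without P1 Pool library 1, which kept 9 OPC of the 10 required. That limit acts on the read counts compared.

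Against astrocytes, OPC had more reads in 7 of 8 mouse and 7 of 10 marmoset libraries. The mean ratio was 1.27-fold in mouse (exact sign-flip permutation p = 0.0156, adjusted p = 0.025, n = 8) and 1.34-fold in marmoset (p = 0.0156, adjusted p = 0.025, sign-flip permutation, n = 10). In mouse the ratios were 0.991, 1.096, 1.32 and 1.58 at P1 and 1.19, 1.31, 1.31 and 1.46 at P7. The ages overlapped and differed by 0.10 in log2 (exact permutation p = 0.657, n = 4). This value depended on the setting. It was 0.38 and passed with a mean over cells in place of the median (adjusted p = 0.0286, exact permutation test, n = 4), and -0.13 without the numbered P1 libraries. Without any 1 of the 4 P7 libraries the mouse call was lost (adjusted p = 0.05, exact permutation tests, n = 7). With at least 2000 reads the mean log2 ratio was 0.0895 instead of 0.34 (exact sign-flip permutation, adjusted p = 0.25, n = 6). P1 Pool library 1 (9 OPC) and P7 Pool library 2 (5 astrocytes) then fell under the minimum of 10 cells. The marmoset mean log2 ratio was 0.12 instead of 0.43 with at least 3000 reads (adjusted p = 0.0859, sign-flip permutation, n = 10) and 0.26 with Y7 as the only adults (exact permutation p = 0.125, n = 7), and the call was lost in both. It was also lost without newborn libraries 1 and 2, at 0.45 (exact permutation p = 0.0625, n = 8). The read limits act on the read counts that are compared, so the values under them do not show how firm these ratios are.

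In marmoset the ratio to astrocytes differed between the ages, in a test chosen after seeing the data. It was 1.29, 1.21, 0.908, 0.965 and 0.962 in newborn libraries. In adult libraries it was 1.56 and 1.72 at Y7 and 1.80, 1.76 and 1.71 at Y8. All adult libraries lay above all newborn ones, a 1.62-fold rise of the ratio (exact permutation p = 0.00794, adjusted p = 0.0159 over 2 tests, n = 5). The OPC medians of the ages overlapped, while astrocytes had 3440 to 5451 reads in newborn and 2536 to 2991 in adult libraries. Among cells with at least 3000 reads the log2 difference was 0.18 instead of 0.69 (exact permutation p = 0.0714, adjusted p = 0.143, n = 5) and the call was lost. This limit lay above every adult astrocyte median and acts on the read counts compared, so it does not show how firm the difference was. Without newborn libraries 1 and 2 the log2 difference was 0.85 (exact permutation p = 0.0357, the smallest possible, adjusted p = 0.0714).

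**Figure D4:**
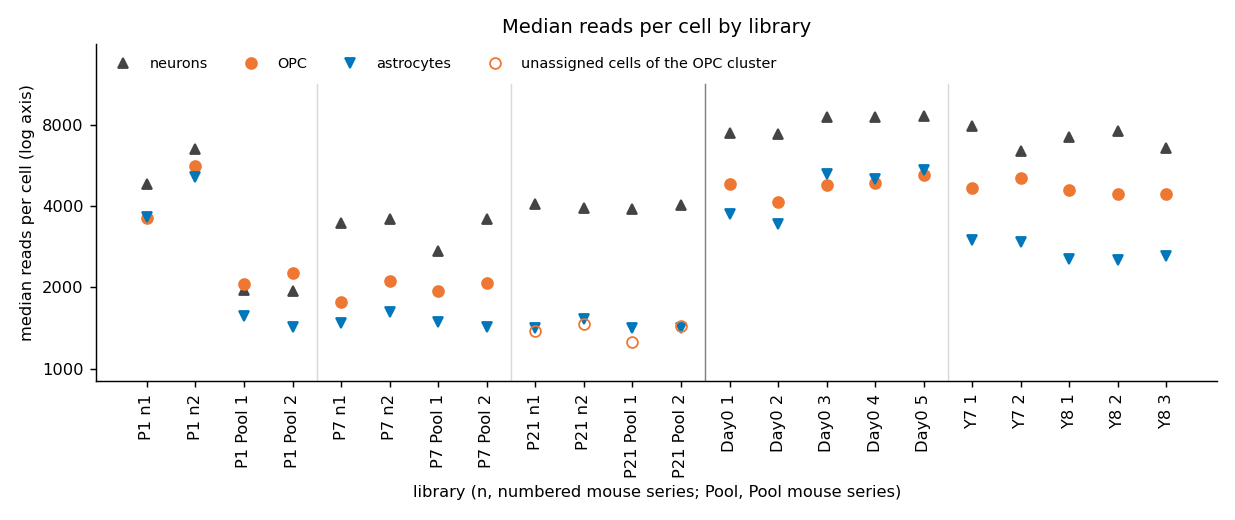
Median reads per cell, on a log axis, of neurons, OPC and astrocytes in each library, with open circles for the unassigned P21 cells of the mouse OPC cluster. OPC lay below neurons in all 10 marmoset libraries and in 6 of the 8 mouse libraries with OPC, and in adult marmoset the OPC medians of 4456 to 5094 lay above astrocyte medians of 2536 to 2991.

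Adult marmoset OPC also had more reads than each later stage of their own lineage. Their median was 1.43 to 1.89 times that of COP, 1.26 to 2.57 times that of NFOL, 1.95 to 2.52 times that of MFOL and 1.50 to 1.98 times that of MOL, higher in 5 of 5 libraries each time. In newborns OPC had more reads than COP in 3 of 5 libraries, with ratios of 0.871 to 1.71. These ratios were not tested.

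The number of peaks with a read followed the number of reads, with 1 exception. OPC had medians of 639, 572, 1147 and 1262 peaks at P1 and 987, 1147, 1009 and 1173 at P7. Marmoset OPC had medians of 2086 to 2675 peaks. Per 1000 reads, OPC had 168 and 108 peaks in the numbered and 563 and 565 in the Pool libraries of P1, 522 to 551 at P7, 477 to 516 in newborn and 510 to 525 in adult marmoset libraries. The exception was thus the numbered P1 series, in OPC as in all its other cells. The difference in peaks per OPC from P1 to P7 was 0.33 in log2 (exact permutation p = 0.400, adjusted p = 0.429, n = 4), with 0.82 in the numbered and -0.15 in the Pool series.

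**Figure D5:**
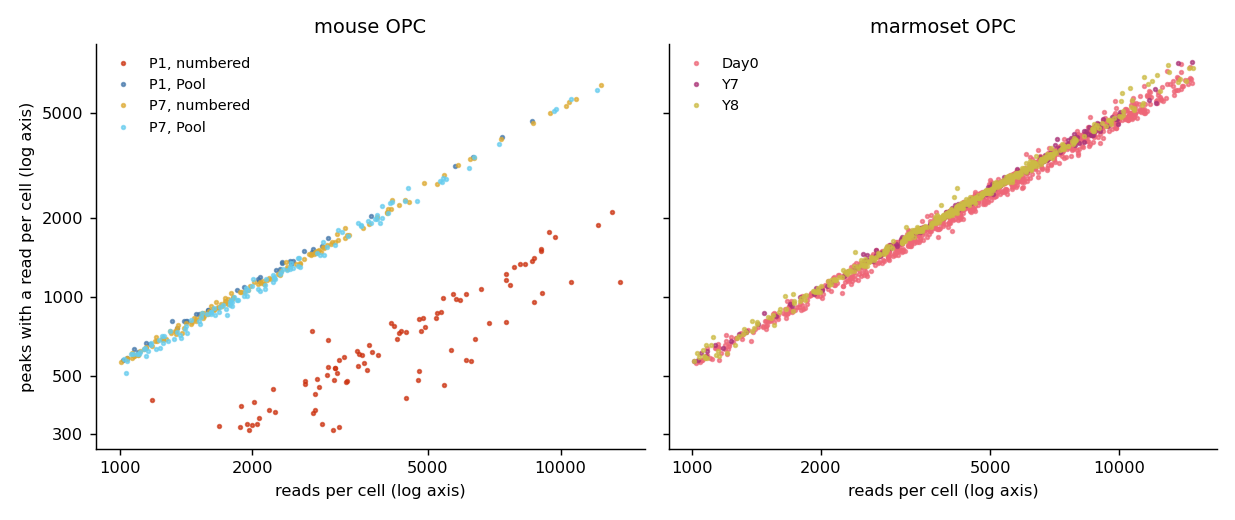
Reads against peaks with a read for every OPC, mouse on the left and marmoset on the right, on log axes, with colours for age and mouse series. Cells of the numbered P1 libraries, with medians of 168 and 108 peaks per 1000 reads, lie below the band of all other OPC.

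Set against neurons and astrocytes of their own library, peaks gave the same picture as reads. Marmoset OPC had 0.610 times the peaks of neurons (sign-flip permutation p = 0.00195, adjusted p = 0.00781, n = 10) and 1.34 times those of astrocytes (p = 0.0156, adjusted p = 0.025). Mouse OPC had 0.729 times the peaks of neurons and 1.23 times those of astrocytes (exact sign-flip permutation p = 0.0312, adjusted p = 0.0357 for each, n = 8). Both mouse calls held in 2 of the 8 fits that left out a library, those without a P1 Pool library for neurons and those without a numbered P1 library for astrocytes. Among cells of 2000 to 4000 reads these differences were small or gone. In marmoset the log2 ratio to neurons was 0.0167 instead of -0.71 (n = 8) and the ratio to astrocytes 0.0905 instead of 0.42 (n = 10). In mouse they were -0.16 instead of -0.46 (n = 6) and -0.0183 instead of 0.30 (n = 5). None of the 4 passed. The mouse ratio to astrocytes could not, since its smallest possible sign-flip permutation p was 0.0625.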

How the data were processed

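The data were 22 single-cell ATAC-seq libraries, 12 mouse and 10 marmoset, in 2 tables with 1 row per cell. Reads had been aligned with Bowtie2 (mm10 for mouse), duplicates removed with Picard, libraries sampled to a similar depth per cell, peaks called with MACS2 within Scasat, and clusters named from gene activity of markers. Read counts and peak counts per cell were used in the unnormalized form the authors deposited. The lowest read count was 1000 in both species. How doublets were handled is not given in the sources used.

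Libraries were grouped by age from their labels and each counted once. Ratios of cell numbers were tested as log2 of (count + 0.5)/(count + 0.5), and reads and peaks as log2 of library medians over at least 10 cells. Groups were compared by two-sided exact permutation tests over libraries, and OPC with other cells of their library by exact two-sided sign-flip tests (Python 3.11.15, SciPy 1.17.1), with Benjamini-Hochberg adjustment within families of 9, 7, 8 and 2 tests. Adjusted p under 0.05 was called. The test code was checked on simulated data. Alternatives were read limits, each mouse series or adult age alone, a replicate block, other denominators, libraries left out, agreeing libraries averaged and a mean in place of the median. Libraries sharing a number correlated in their deviations at 0.06 to 0.57 in mouse and -0.74 to 0.95 in marmoset, so the number was not taken as a pairing. The cells, tests and comparisons were chosen with earlier results of these data known. No gene was named by rule, since no gene-level values were used.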

Additional observations from a re-analysis of the deposited data

Results flagged for a closer look

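Of 41 groups of libraries checked for a value far from the rest, 2 held one, and chance gives such a value in about 1 in 20 groups. In adult marmosets, Y8 library 1 had a log2 ratio of OPC to astrocytes of -0.19, against 0.04 to 0.11 in the other 4 adult libraries. Y7 library 1 had a log2 ratio of OPC peaks to astrocyte peaks of 0.63, against 0.79 to 0.84 in the others. The ratio of OPC reads to astrocyte reads differed between adult and newborn marmosets by 0.69 in log2 (exact permutation p = 0.00794, adjusted p = 0.0159, n = 5), as given above.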

How the results depend on the processing

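Values here are log2 unless marked, calls are of adjusted p, and the cause of a difference was not tested. A read limit cuts the same read counts that the ratios of reads compare. A call of such a ratio lost under it does not show how firm the call was. A read limit also leaves out unequal shares of the cell types, which acts on ratios of cell numbers. With at least 2000 reads, P7 minus P1 was 0.97 for peaks per OPC and -0.14 for reads against neurons. Both values lack P1 Pool library 1, which kept 9 OPC, under the minimum of 10. Mouse OPC against astrocytes were then 0.0895 (reads) and 0.0411 (peaks), no longer called, over 6 libraries. In the numbered and the Pool series alone, P7 minus P1 was -1.23 and -0.10 for reads, 0.82 and -0.15 for peaks, and 408 and -27.3 for peaks per 1000 reads, and cluster 14 differed by -2.21 and 0.17 points from P1 to P21 and by -4.10 and -1.43 points from P7 to P21. With Y7 as the only adults, OPC per neuron was 0.96, and reads and peaks against astrocytes were 0.26 and 0.25, not called. With Y8 alone, reads and peaks against astrocytes were 0.35 each, not called, and the age difference of reads against astrocytes was 0.73, not called, since its smallest p was 0.0357. A mean over cells gave a mouse age difference of reads against astrocytes of 0.38, called. In cells of 2000 to 4000 reads, peaks against neurons and astrocytes were -0.16 and -0.0183 in mouse and 0.0167 and 0.0905 in marmoset, none called, with 2 of the 4 turned in direction. These rest on 6 and 5 mouse and 8 and 10 marmoset libraries, and with 5 libraries no call was possible.

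Alternatives chosen after seeing the data follow. With at least 3000 reads, P7 minus P1 was 1.68 for peaks, 389 for peaks per 1000 reads and -0.0245 for reads against neurons. The P1 Pool libraries kept 3 and 2 OPC, under the minimum of 10, so only the numbered P1 libraries entered. Those are the libraries with 168 and 108 peaks per 1000 reads, so these values do not separate age from that series. With the same limit, marmoset OPC per neuron (2.59) and per astrocyte (1.30) were called. The limit lay above every adult astrocyte median (2536 to 2991 reads), so the call per astrocyte does not show how firm that difference was. Not called were marmoset reads and peaks against astrocytes (0.12 and 0.11) and their age difference in reads (0.18). Nor were mouse reads and peaks against neurons (-0.24 and -0.29, n = 6), at the smallest p possible there (sign-flip permutation p = 0.0312, adjusted p = 0.0625). Against astrocytes the mouse values were 0.12 and 0.0157 on 2 libraries. Their smallest possible sign-flip permutation p was 0.5, so they could not be called. Without both numbered P1 libraries, P7 minus P1 was -0.13 for reads, -0.16 for peaks, -22.6 for peaks per 1000 reads and -0.13 for reads against astrocytes, and reads and peaks against neurons were -0.45 and -0.48, not called. Without newborn libraries 1 and 2, marmoset reads and peaks against astrocytes were 0.45 and 0.46 and their age difference in reads 0.85, not called. With agreeing libraries averaged no p could pass, and OPC per neuron differed by 0.95 in mouse and 1.75 in marmoset.

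Leaving out 1 library at a time gave -0.51 to -0.34 for mouse reads and -0.54 to -0.38 for mouse peaks against neurons, and 0.30 to 0.40 and 0.26 to 0.35 against astrocytes. Of 8 such fits each, 1, 2, 4 and 2 kept the call. The marmoset calls were kept in 10 of 10 fits each. With the replicate number as a block (replicate block), the mouse differences kept their values (0.99 and 2.03 for OPC per neuron and per astrocyte) and those of marmoset were 2.48 and 0.27. The marmoset block leaves out newborn libraries 4 and 5, whose number no adult library carries, so its values rest on fewer libraries. The smallest p under the block was 0.125 in mouse and 0.111 in marmoset, so none could pass. Of 450 alternative values, 27 turned in direction, 5 of them on leaving out 1 library, and 2 of the 27 belonged to differences that had been called. None of the turned values was called in its new direction.

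The small age differences that had not been called turned most often. Marmoset peaks per OPC (0.0085) was -0.0337 and -0.0254 with at least 2000 and 3000 reads, -0.0334 with Y8 alone, -0.0647 with a mean over cells, -0.0833 without newborn libraries 1 and 2 and -0.0415 to 0.0482 on leaving out 1 library. The OPC share of OPC and COP (-2.59 points) was 0.273 and 2.504 points with at least 2000 and 3000 reads, 6.22 with Y7 alone, 5.29 without newborn libraries 1 and 2 and -5.22 to 0.767 on leaving out 1 library. Marmoset reads per OPC (-0.0385) was 0.0301 with Y7 alone, 0.00837 under the replicate block and 0.00678 with agreeing libraries averaged. Marmoset reads against neurons (0.15) was -0.012 with a mean over cells, and mouse reads against astrocytes (0.10) was -0.0614 in the Pool series and -0.00219 to 0.223 on leaving out 1 library.

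The number of libraries, 4 or 5 per group, and 17 to 21 OPC in 3 of the P1 libraries limited what could be detected. Animals per library, species apart from chemistry and gene identity could not be addressed.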
